A study of Rattus norvegicus with 4 samples.

Results

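The retina at 11 weeks of age was compared with the retina at 5 weeks on 2 of the 4 two-colour arrays of a series on the maturing retina of the rat, chosen by the pair of ages in their titles. Albino Lewis rats were raised from birth in ordinary laboratory light cycles, whole retinas were pooled, and RNA from an older retina and from the 5-week retina was amplified, given Cy5 or Cy3, and put on the same array. No allele, drug or other treatment is named for either age. One array held the 11-week retina in Cy5 and the 5-week retina in Cy3, and the other held them with the dyes exchanged. They are called the Cy5 array and the Cy3 array below, by the dye of the 11-week retina. The other 2 arrays compared 20 weeks with 5 weeks in the same manner.

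Every value below is a log2 ratio of 11 over 5 weeks, after each array was centred on the median of its probes with 1 listed gene and the sign of the Cy3 array was turned. The value table held 22575 probes, 12750 of them with 1 gene, and these gave 9653 genes. A ratio is read here as the Cy5 signal over the Cy3 signal. The titles make this direction likely, since they put the Cy5-labelled age first. With the opposite direction every "higher" and "lower" would be exchanged. The labels do not say how many animals were pooled, nor that both arrays held separately extracted RNA, so both may have measured 1 pool per age. The spread between the arrays would then be technical, and p-values below would measure no more than technical spread. Ratios carry no level, so the presence of retinal markers could not be checked, and in whole tissue fewer cells of a type and less RNA per cell cannot be told apart.

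The neural retina is made of rods, cones, bipolar, amacrine, horizontal and ganglion cells, spanned by Müller glia. In rats, rods far outnumber the other neurons. Rods renew their light-sensing outer segments continuously, which calls for sustained protein synthesis, and they use much of their energy to keep ion gradients. At 5 weeks the eyes have been open for weeks and the retina is layered, while the animal is still growing. At 11 weeks it is a young adult.

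The arrays agreed in direction for a minority of genes. Of 9653 genes, 1982 were higher at 11 weeks on both arrays (20.5%) and 1951 were lower on both (20.2%), so 3933 in all had the same direction (40.7%). Across genes, which are not independent replicates, the turned ratios of the arrays correlated negatively, with a Pearson r of -0.30 and a Spearman rho of -0.29. The unturned ratios thus moved together, and the median absolute dye difference (0.129, as the difference between the arrays divided by 2) was larger than the median absolute mean ratio (0.094). At the level of probes, the Cy5 array correlated with the 20-week Cy5 array at 0.69, and the Cy3 array with the 20-week Cy3 array at 0.58. The 20-week pair, by contrast, correlated weakly and positively when turned, at 0.145, and at -0.145 when not turned. If the deposited ratios had already been turned to 1 age, the Cy3 array should not be turned again. Then 5699 genes (59.0%) would share a direction, and every gene given below with 1 direction on both arrays would have opposite signs. The medians would be 0.11 for ribosomal protein genes, 0.07 for rod genes, 0.04 for respiratory chain genes and 0.03 for crystallins, in place of the values below 0 reported for these groups.

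Agreement grew with the size of the mean, which is in part built in, since the mean comes from the same values whose signs are compared. Of 1609 genes with a mean of at least 0.2 in either direction, 83.8% had the same direction on both arrays. The share was 91.6% of 547 genes at a mean of at least 0.3, and 98.3% of 59 genes at a mean of at least 0.5, where a gene whose arrays disagree needs 1 very large value. At a mean of at least 0.3, 132 genes were higher and 415 lower, while among the 23 genes at a mean of at least 0.6, 14 were higher and 9 lower. The description that follows centres on genes and families with the same direction on both arrays.

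**Figure D1:**
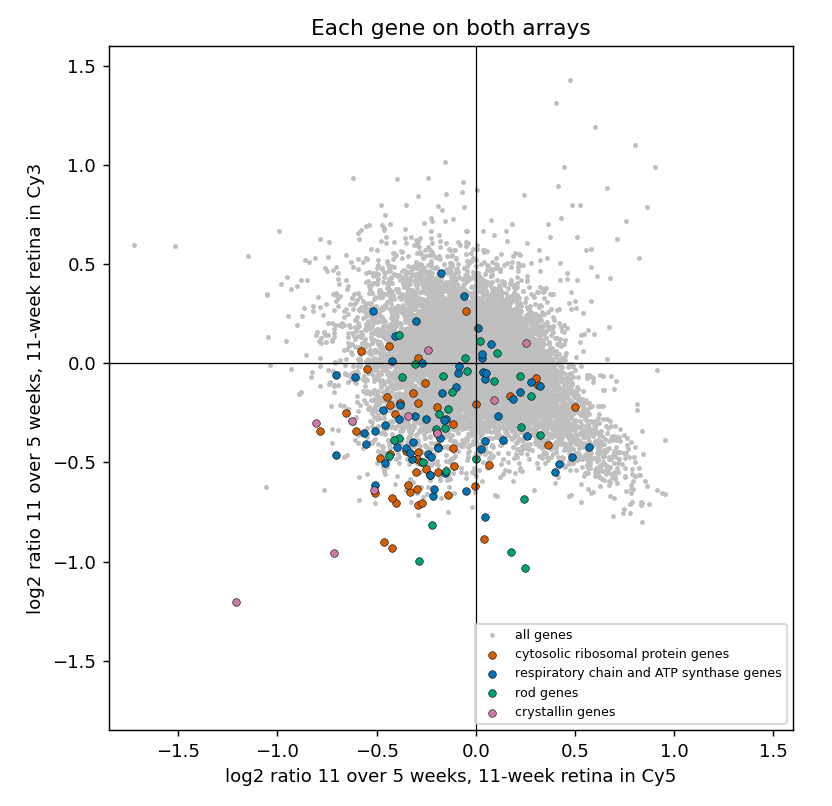
Log2 ratio of 11 over 5 weeks of each of 9653 genes on the Cy5 array (horizontal axis) and the Cy3 array (vertical axis), with members of 4 groups in colour. The grey cloud slopes downwards (r of -0.30), while 38 of 50 ribosomal protein genes, 35 of 63 respiratory chain and ATP synthase genes, 16 of 29 rod genes and 7 of 10 crystallin genes lie at the lower left, where both ratios are below 0.

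A gene was called past the fold when both arrays were beyond 0.32 on the log2 scale in the same direction. By this rule 41 genes were higher at 11 weeks (0.425%) and 119 lower (1.23%), and with the ratios as deposited the counts were 44 and 61, so that the share of higher calls was 25.6% after centring and 41.9% without it. The balance turned among the largest ratios, since 7 genes were higher and 5 lower (58.3% higher) when both arrays had to be beyond 1.5-fold. The last genes inside the lower limit were Swi5, at -0.41 and -0.32, and Phyhd1, at -0.32 and -0.48 (Cy5 and Cy3 array), and the first outside were Faim, at -0.32 and -0.34, and Bnip3, at -0.43 and -0.32. On the higher side Cxcl11 lay just inside, at 0.32 and 0.52, and Or2y13 just outside, at 0.32 and 0.57.

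Tested with limma over all 4 arrays, 0 genes passed an adjusted p of 0.05 without a dye term, where 367 genes (3.8%) had an unadjusted p under 0.05 and the smallest adjusted p was 0.999. A limma model with a dye effect per gene, taken as equal on the 4 arrays, passed 252 genes as higher (2.61%) and 612 as lower (6.34%). Of these 864 genes, 787 had the same direction on both arrays and 77 did not. All 160 genes past the fold on both arrays were among them. "Passed" below refers to this second model, and none of those calls was made without the dye term or, with it, on the ratios as deposited (37 genes had an unadjusted p under 0.05 there). The fit as deposited takes in all 4 arrays, and the 20-week Cy5 array had a deposited median of 0.547 over all probes. Its part in the loss of calls was not tested.

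The 15 lowest and 15 highest genes, ranked by the weaker of the arrays, come first. They were chosen by these values, which are therefore a description. The lens protein gene Cryba4 (chromosome 12, 50039148 to 50053636 in GRCr8), a beta-crystallin, was lowest, at -1.21 on the Cy5 array and -1.20 on the Cy3 array. Its mean was -1.21 ± 0.0028 (SD, n = 2), a ratio 2.31-fold lower at 11 weeks, and it passed with an adjusted p of 5.43e-05. Cryaa, the alpha-A crystallin, was at -0.71 on the Cy5 array and -0.95 on the Cy3 array, and Cryab, the alpha-B crystallin and small heat shock protein, at -0.52 on the Cy5 array and -0.64 on the Cy3 array. Both alpha-crystallins were therefore lower in either dye orientation.

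Atf4, the transcription factor of the integrated stress response, was at -0.76 on the Cy5 array and -0.64 on the Cy3 array, a mean of -0.70 ± 0.087 (SD, n = 2). Fabp5, an epidermal-type fatty acid binding protein, was at -0.59 on the Cy5 array and -0.69 on the Cy3 array, with a mean of -0.64 ± 0.0693 (SD, n = 2). Ccrl2, an atypical chemoattractant receptor, was at -1.06 on the Cy5 array and -0.62 on the Cy3 array, the widest gap among the 15. Slc31a2, a copper transporter of the CTR family, was at -0.55 on the Cy5 array and -0.56 on the Cy3 array. The arrays were close to each other for all of these but Ccrl2.

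Several of the remaining lowest genes encode small proteins of translation and of mitochondria. Tma7, a factor named for its association with the translation machinery in yeast, was at -0.59 on the Cy5 array and -0.57 on the Cy3 array. Tomm7, a small subunit of the import pore of the outer mitochondrial membrane, was at -0.51 on the Cy5 array and -0.71 on the Cy3 array. Ndufa6, an accessory subunit of complex I, was at -0.51 on the Cy5 array and -0.61 on the Cy3 array, and Kgd4, the gene of an adaptor subunit of the 2-oxoglutarate dehydrogenase complex, at -0.66 on the Cy5 array and -0.47 on the Cy3 array. Rps13 was at -0.51 on the Cy5 array and -0.65 on the Cy3 array and Rpl6 at -0.48 on the Cy5 array and -0.48 on the Cy3 array, both ribosomal proteins. Nop58, a core protein of the small nucleolar particles that methylate ribosomal RNA, was at -0.47 on the Cy5 array and -0.52 on the Cy3 array, and Zcchc7, a zinc knuckle protein linked to nuclear RNA decay, at -0.50 on the Cy5 array and -0.50 on the Cy3 array. The 15 lowest genes all passed, with adjusted p from 5.43e-05 to 0.0115.

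On the higher side, Kmo (chromosome 13, 90089340 to 90121108), the mitochondrial kynurenine 3-monooxygenase, was at 0.91 on the Cy5 array and 0.99 on the Cy3 array, a mean of 0.95 ± 0.0615 (SD, n = 2) or a 1.93-fold higher ratio. Dhodh (chromosome 19, 54460636 to 54483049), the mitochondrial enzyme that makes orotate in pyrimidine synthesis, was at 0.81 on the Cy5 array and 1.1 on the Cy3 array, a mean of 0.95 ± 0.208 (SD, n = 2). Ccl2, a chemokine that attracts monocytes, was at 0.86 on the Cy5 array and 0.79 on the Cy3 array. Rpf2, an assembly factor of the large ribosomal subunit, was at 0.66 on the Cy5 array and 0.89 on the Cy3 array. Both arrays placed each of these 4 genes well above 0.

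Anxa1, annexin A1, a membrane-binding protein that dampens inflammation, was at 0.71 on the Cy5 array and 0.63 on the Cy3 array. Gchfr, the feedback regulator of GTP cyclohydrolase in tetrahydrobiopterin synthesis, was at 0.53 on the Cy5 array and 0.80 on the Cy3 array, and Pygl, the liver form of glycogen phosphorylase, at 0.49 on the Cy5 array and 0.80 on the Cy3 array. Osbpl2, a sterol-binding protein, was at 0.56 on the Cy5 array and 0.57 on the Cy3 array. Dscaml1, an adhesion molecule that spaces neurons in the mouse retina, was at 0.51 on the Cy5 array and 0.64 on the Cy3 array, a mean of 0.57 ± 0.0898 (SD, n = 2). All 5 passed.

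The other highest genes are known mainly from other tissues. Sdc1, the epithelial proteoglycan syndecan-1, was at 0.48 on the Cy5 array and 1.43 on the Cy3 array, and Slc34a1, the phosphate transporter of kidney tubules, at 0.60 on the Cy5 array and 1.19 on the Cy3 array. These had the widest gaps between the arrays among the 15, so their size rests largely on the Cy3 array. Tcam1, a testis adhesion molecule, was at 0.76 and 0.72, Hils1, a spermatid histone, at 0.58 and 0.58, Cd40lg, a T-cell ligand, at 0.82 and 0.53, and Prl7d1, a placental prolactin, at 0.58 and 0.49 (Cy5 and Cy3 array). Of the 30 leading genes, Sdc1 was measured with 2 probes and the others with 1. All 30 kept their direction on both arrays with the ratios as deposited.

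**Figure D2:**
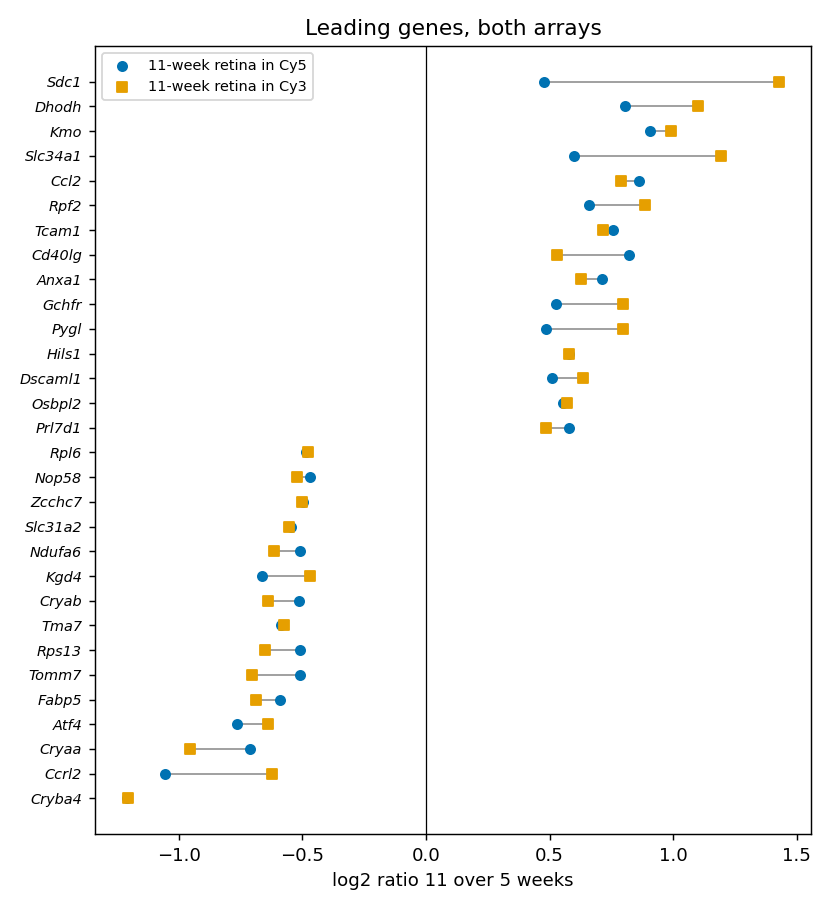
Log2 ratio of 11 over 5 weeks of the 30 leading genes on the Cy5 array (circles) and the Cy3 array (squares), joined by a line per gene and ordered by their mean. Cryba4, Hils1, Tma7 and Zcchc7 have nearly the same ratio on both arrays, and Sdc1 and Slc34a1 have the widest gaps.

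Rod genes lay mostly below 0 on both arrays. In rods, light leads to the activation of transducin, which activates a phosphodiesterase, and the fall of cyclic GMP closes a cation channel. Of 29 rod genes measured, 16 were lower on both arrays (55.2%, against 20.2% of all genes), 2 were higher on both, and 11 pointed opposite ways, with a median of -0.22 against 0.02 for all genes. Medians were -0.14 on the Cy5 array and -0.32 on the Cy3 array. With the dye term, 11 passed as lower and 0 as higher. As deposited, without centring, 13 rod genes were lower on both arrays and 3 higher, against 12.3% lower and 26.5% higher among all genes.

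Rcvrn, recoverin, a calcium sensor of photoreceptors, was at -0.44 on the Cy5 array and -0.47 on the Cy3 array, a mean of -0.45 ± 0.0212 (SD, n = 2). Guca1b, an activator of guanylate cyclase, was at -0.41 on the Cy5 array and -0.39 on the Cy3 array, and Cnga1, the alpha subunit of the cyclic GMP-gated channel, at -0.39 on the Cy5 array and -0.38 on the Cy3 array. These 3 were past the fold and close between the arrays. Gngt1, which encodes transducin gamma in rods, was at -0.28 on the Cy5 array and -0.995 on the Cy3 array, and Prph2, peripherin of the disc rim, at -0.22 on the Cy5 array and -0.82 on the Cy3 array, so the direction was shared but the size differed several-fold.

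For other genes of the rod cascade the arrays disagreed. Gnat1, the alpha subunit of transducin, was at 0.18 on the Cy5 array and -0.95 on the Cy3 array, Gnb1, its beta subunit, at 0.25 on the Cy5 array and -1.03 on the Cy3 array, and Sag, rod arrestin, at 0.24 on the Cy5 array and -0.69 on the Cy3 array. Each was far below 0 on the Cy3 array and above 0 on the Cy5 array, so a low mean (-0.39, -0.39 and -0.22) rests on the Cy3 array alone. Unc119, a lipid-binding chaperone of transducin, was at -0.27 on the Cy5 array and -0.50 on the Cy3 array, and Pdc, phosducin, at -0.15 on the Cy5 array and -0.55 on the Cy3 array. Crx, the homeobox factor of photoreceptors, was at -0.19 on the Cy5 array and -0.26 on the Cy3 array, and its limma adjusted p of 0.141 did not pass. Rgs9, which speeds the shut-off of transducin, was at 0.11 on the Cy5 array and 0.05 on the Cy3 array, and Grk1, a photoreceptor kinase, at 0.02 on the Cy5 array and 0.11 on the Cy3 array, neither of which passed.

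Cone genes showed no common direction. Of 9 measured, 3 were lower on both arrays and 2 higher, with a median of -0.03. Gnat2, cone transducin, was at -0.44 on the Cy5 array and -0.30 on the Cy3 array and passed as lower. Opn1mw, the middle-wave cone opsin, was at 0.23 on the Cy5 array and 0.42 on the Cy3 array and passed as higher. Arr3, cone arrestin, was at -0.06 and -0.19 and did not pass.

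Promoters are shown for the groups whose members shared a direction, to set the letters of known regulatory motifs beside the ratios. Sequences are from RefSeq for GRCr8, 250 bases upstream of the annotated start, written 5′ to 3′ on the strand of the gene, with motif letters in capitals. The motifs searched on both strands were TAATCC (the core bound by CRX and OTX2), CCGGAA (the core of ETS factors), GCGCATGC (a core of NRF1) and TATAAA (the TATA box), and none of the matches printed here overlap. Of 29 rod genes, 25 had a window, and 10 of these (40%) held TAATCC, against 6.33% of 27457 rat promoters and 5.03% of the windows of measured genes. The sequences are those of the lowest 2 of the 10 by the weaker array.
Gngt1: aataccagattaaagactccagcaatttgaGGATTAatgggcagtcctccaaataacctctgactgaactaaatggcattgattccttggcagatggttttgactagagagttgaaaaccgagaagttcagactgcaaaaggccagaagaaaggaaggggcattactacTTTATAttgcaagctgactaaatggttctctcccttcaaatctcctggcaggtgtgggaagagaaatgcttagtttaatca
Prph2: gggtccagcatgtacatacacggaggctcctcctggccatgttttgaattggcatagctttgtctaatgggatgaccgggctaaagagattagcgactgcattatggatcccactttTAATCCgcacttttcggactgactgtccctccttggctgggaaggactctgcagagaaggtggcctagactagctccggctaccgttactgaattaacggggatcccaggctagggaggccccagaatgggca

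The window of Gngt1 lies at chr4:32960695-32960944, plus strand, and holds one CRX core, as GGATTA on the reverse strand, and a TATA box on the reverse strand. That of Prph2 lies at chr9:21579075-21579324, minus strand, and holds one CRX core. Of the 10 rod genes with TAATCC, 5 were lower on both arrays and 0 higher, and of the 15 with a window but without these letters, 9 were lower and 1 higher. Among all 399 measured genes with TAATCC in the window, 21.3% were lower on both arrays, close to the 20.6% of the 7934 measured genes with any window. The letters describe the windows only, and nothing on binding follows from them.

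Crystallins are the bulk proteins of the lens, and several are also made in retinal neurons and glia, where the alpha-crystallins act as chaperones. Of 10 crystallin genes measured, 7 were lower at 11 weeks on both arrays, 1 was higher and 2 pointed opposite ways, with a median of -0.38. Beside Cryba4, Cryaa and Cryab, Crybb2 was at -0.81 on the Cy5 array and -0.30 on the Cy3 array and Cryba1 at -0.63 on the Cy5 array and -0.29 on the Cy3 array. Cryba2 was at -0.34 and -0.27 and Crybb3 at -0.19 and -0.35 on the Cy5 and Cy3 array. These 7 genes passed as lower. Crybb1, at -0.24 and 0.07, and Crygd, at 0.09 and -0.19, had opposite signs, and Crygn, at 0.25 and 0.10, did not pass. Of the 3 other lens genes on the list, 0 were lower on both arrays. Bfsp1, a lens filament protein, was at -0.03 and 0.05, Gja3, a lens connexin, at -0.22 and 0.63, and Lim2, a lens membrane protein, at 0.21 and -0.21, and how far lens tissue in the dissection bears on these values was not tested.

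Ribosomal protein genes lay below 0 on both arrays in most cases. Cytosolic ribosomes join a small subunit, which reads the message, and a large subunit, which forms the peptide bond, and their proteins are made in near-equal amounts. Of 50 genes measured, 38 were lower at 11 weeks on both arrays (76%, against 20.2% of all genes), 0 were higher on both and 12 pointed opposite ways. Past the fold on both arrays lay 12, which is 24% of the family against 1.23% of all genes. The median was -0.35, with -0.29 on the Cy5 array and -0.44 on the Cy3 array, and 36 passed as lower and 0 as higher. As deposited, 38 were lower on both arrays and 2 higher. Many of these genes have processed pseudogenes with nearly the same sequence, so a probe may also have measured transcripts of such copies.

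By subunit, 20 of 29 large-subunit genes (median -0.37) and 18 of 21 small-subunit genes (median -0.33) were lower on both arrays. In the large subunit, Rpl39 was at -0.43 on the Cy5 array and -0.46 on the Cy3 array, Rpl9 at -0.40 on the Cy5 array and -0.70 on the Cy3 array and Rpl31 at -0.35 on the Cy5 array and -0.44 on the Cy3 array. In the small subunit, Rps21 was at -0.46 on the Cy5 array and -0.90 on the Cy3 array, Rps7 at -0.42 on the Cy5 array and -0.68 on the Cy3 array and Rps29 at -0.42 on the Cy5 array and -0.93 on the Cy3 array. The Cy3 array gave the lower value for each of these 6 genes, and both arrays were below 0.

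The promoter of Rps13, at chr1:180009661-180009910, minus strand, is shown as that of the ribosomal protein gene lowest by the weaker array, and that of Ndufa6, at chr7:115750318-115750567, minus strand, as that of the respiratory chain gene lowest by the same measure.
Rps13: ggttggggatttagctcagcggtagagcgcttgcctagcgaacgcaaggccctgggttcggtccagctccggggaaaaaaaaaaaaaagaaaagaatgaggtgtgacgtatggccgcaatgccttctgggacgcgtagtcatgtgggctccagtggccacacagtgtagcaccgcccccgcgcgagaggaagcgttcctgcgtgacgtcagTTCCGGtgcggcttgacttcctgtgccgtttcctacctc
Ndufa6: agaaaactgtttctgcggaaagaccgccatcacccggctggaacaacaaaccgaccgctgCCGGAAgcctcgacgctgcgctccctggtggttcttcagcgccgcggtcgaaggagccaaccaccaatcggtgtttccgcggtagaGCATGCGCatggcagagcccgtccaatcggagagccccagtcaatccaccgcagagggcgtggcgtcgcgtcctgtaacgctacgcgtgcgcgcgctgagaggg

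Rps13 holds one ETS core, and Ndufa6 one ETS core and one NRF1 core. CCGGAA or its reverse was found in 15 of 40 ribosomal protein windows (37.5%) and in 22 of 56 respiratory chain windows (39.3%), against 13.4% of all promoters and 21.0% of the 7934 windows of measured genes. GCGCATGC was found in 10 of the 56 respiratory chain windows (17.9%), against 2.38% of all promoters and 3.91% of the windows of measured genes. Of 1670 measured genes with the ETS core, 27.0% were lower on both arrays and 14.9% higher. Of 310 with the NRF1 core, 27.7% were lower and 13.5% higher, against 20.6% lower and 19.9% higher for measured genes with any window. Of 651 with TATAAA, 16.1% were lower and 23.8% higher.

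Translation factors leaned the same way with smaller ratios. Of 49 initiation and elongation factor genes, 22 were lower on both arrays (44.9%) and 4 higher, with a median of -0.09, and 9 passed as lower. Eif3m, a subunit of the initiation factor that loads the small subunit, was at -0.49 on the Cy5 array and -0.41 on the Cy3 array. Eif4a3, a helicase of the exon junction complex, was at -0.44 on the Cy5 array and -0.39 on the Cy3 array, and Eef1e1, a scaffold of the tRNA synthetase complex, at -0.40 on the Cy5 array and -0.38 on the Cy3 array. Of 41 mitochondrial ribosomal protein genes, 13 were lower on both arrays and 1 higher, led by Mrps21 at -0.46 on the Cy5 array and -0.54 on the Cy3 array. With the ratios as deposited only 3 of those 41 were lower on both (7.32%, against 12.3% of all genes). Ribosome assembly genes did not share a direction, with 5 of 14 lower and 2 higher, and with Nop58 and Rpf2 at opposite ends.

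The respiratory chain passes electrons through complexes I to IV of the inner mitochondrial membrane, and ATP synthase uses the proton gradient. Of 63 genes measured, 35 were lower at 11 weeks on both arrays (55.6%) and 4 higher, with a median of -0.22, and 30 passed as lower and 0 as higher. As deposited, 31 were lower on both arrays and 5 higher. All 4 genes of complex II, the succinate dehydrogenase that also serves the citrate cycle, were lower on both arrays and passed. In ATP synthase 10 of 15 genes were lower on both arrays, in complex III 5 of 8, in complex IV 6 of 13, and in complex I 9 of 22. Differences between the complexes were not tested.

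Among single subunits, Cox7a2 of complex IV was at -0.70 on the Cy5 array and -0.46 on the Cy3 array and Cox5b at -0.46 on the Cy5 array and -0.50 on the Cy3 array. Atp5pf, a coupling subunit of ATP synthase, was at -0.55 on the Cy5 array and -0.41 on the Cy3 array, Atp5pd at -0.40 on the Cy5 array and -0.42 on the Cy3 array and Atp5mg at -0.57 on the Cy5 array and -0.35 on the Cy3 array. In complex II, Sdhd was at -0.33 on the Cy5 array and -0.45 on the Cy3 array and Sdha, the flavoprotein, at -0.39 on the Cy5 array and -0.28 on the Cy3 array. Ndufb9 of complex I was at -0.32 on the Cy5 array and -0.48 on the Cy3 array, and Uqcr11 of complex III at -0.21 on the Cy5 array and -0.64 on the Cy3 array. Of the alternative isoforms, Cox4i2 was at 0.08 and 0.10 and Ndufa4l2 at 0.03 and 0.05 on the Cy5 and Cy3 array, and neither passed.

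**Figure D3:**
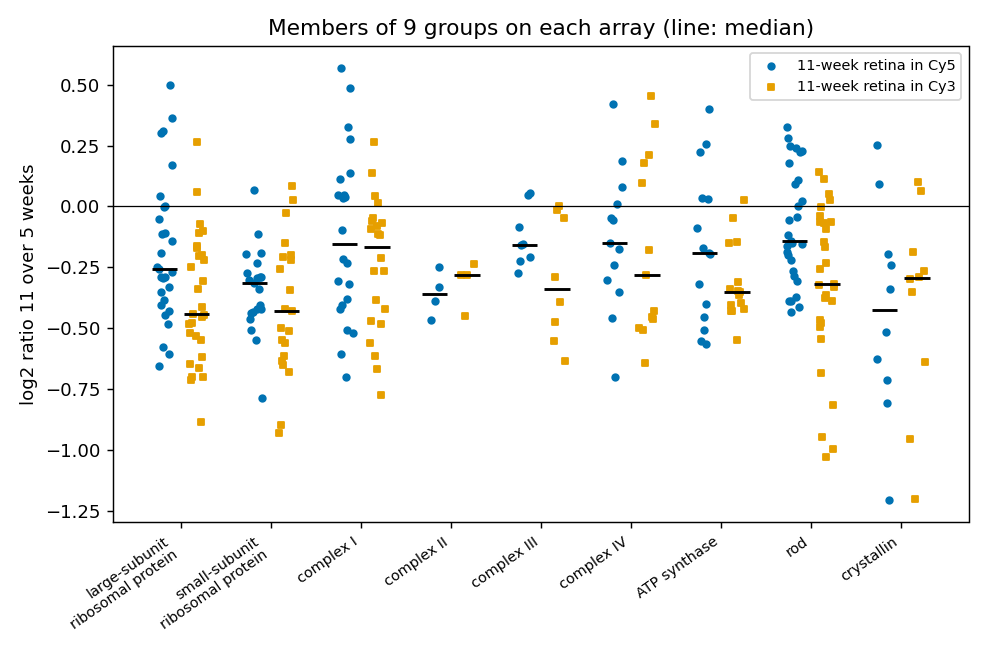
Log2 ratio of 11 over 5 weeks of the members of 9 groups, with the Cy5 array (circles) left of the Cy3 array (squares) and a line at each median. All medians lie below 0 on both arrays, and single members of most groups lie above 0 on one of them.

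In the citrate cycle, 12 of 24 genes were lower on both arrays and 2 higher, and 4 passed, all of them subunits of complex II. Of 24 glycolysis genes, 7 were lower on both arrays (29.2%) and 3 higher. Their median was 0.03 on the Cy5 array and -0.28 on the Cy3 array, so this list leaned on 1 array. Ldha, lactate dehydrogenase A, was at -0.39 on the Cy5 array and -0.47 on the Cy3 array, Pgk1 at -0.25 on the Cy5 array and -0.29 on the Cy3 array and Ldhb at -0.25 on the Cy5 array and -0.30 on the Cy3 array.

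Protein turnover genes lay below 0 on both arrays more often than above it. The proteasome is a barrel of alpha and beta subunits with a cap that unfolds tagged proteins. Of 41 genes, 16 were lower on both arrays (39%) and 6 higher, with a median of -0.12, and 9 passed as lower and 0 as higher. Psmb2 of the barrel was at -0.42 on the Cy5 array and -0.36 on the Cy3 array, Psma2 at -0.45 on the Cy5 array and -0.31 on the Cy3 array, and Psmc4, an ATPase of the cap, at -0.39 on the Cy5 array and -0.43 on the Cy3 array. The barrel had 7 of 16 genes lower on both arrays and the cap 5 of 17. Of 26 genes for ubiquitin activation, conjugation and removal, 9 were lower and 0 higher, with Uba3, which activates NEDD8, at -0.36 on the Cy5 array and -0.20 on the Cy3 array.

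Of 70 chaperone and heat shock genes, 26 were lower on both arrays (37.1%) and 8 higher, with a median of -0.07. As deposited the counts were 16 (22.9%, against 12.3% of all genes) and 13 (18.6%, against 26.5%). Hspa14 was at -0.31 on the Cy5 array and -0.30 on the Cy3 array and Dnaja1, a co-chaperone of HSP70, at -0.31 on the Cy5 array and -0.25 on the Cy3 array, both passed. Of 27 genes for folding and secretion in the endoplasmic reticulum, 12 were lower on both arrays and 2 higher. P4hb, a protein disulfide isomerase, was at -0.45 on the Cy5 array and -0.47 on the Cy3 array, and Srp14, of the signal recognition particle, at -0.40 on the Cy5 array and -0.48 on the Cy3 array. Bhlha15 (Mist1), which shapes secretory cells in mice, was at 0.41 on the Cy5 array and 0.27 on the Cy3 array and passed as higher.

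In the nucleus, 17 of 39 splicing genes were lower on both arrays (43.6%) and 0 higher, with ratios that were small. Srsf6 was at -0.26 on the Cy5 array and -0.28 on the Cy3 array and Hnrnpab at -0.30 on the Cy5 array and -0.22 on the Cy3 array. In this list 3 genes passed as lower (7.69%), a share near the 6.34% of all genes. Of 50 histone and chromatin genes, 20 were lower on both arrays and 5 higher. Hmgn2, a nucleosome-binding protein, was at -0.53 on the Cy5 array and -0.40 on the Cy3 array, H3f3b, a replacement histone H3.3 gene, at -0.35 on the Cy5 array and -0.64 on the Cy3 array, and Kdm3a, a histone demethylase, at -0.48 on the Cy5 array and -0.35 on the Cy3 array. Of 10 genes of the TRAPP complex, which tethers vesicles at the Golgi, 6 were lower on both arrays and 0 higher, with Trappc13 at -0.34 on the Cy5 array and -0.37 on the Cy3 array and Trappc2l at -0.46 on the Cy5 array and -0.33 on the Cy3 array. The TRAPP list was added after the values were seen.

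Synaptic genes split between members. Of 40 genes of synaptic vesicles and release, 17 were lower on both arrays (42.5%) and 6 higher, with a median of -0.06. As deposited 9 were lower (22.5%, against 12.3% of all genes) and 8 higher (20%, against 26.5%). Syt1, the calcium sensor of fast release, was at -0.32 on the Cy5 array and -0.33 on the Cy3 array, Nsf, which takes fusion complexes apart, at -0.33 on the Cy5 array and -0.35 on the Cy3 array, and Snap25, a fusion protein of the plasma membrane, at -0.15 on the Cy5 array and -0.49 on the Cy3 array. These 3 passed as lower. Rph3a, rabphilin, an effector of Rab3, was at 0.34 on the Cy5 array and 0.37 on the Cy3 array and passed as higher.

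Receptor and channel genes lay near or slightly above the median gene. Of 20 glutamate receptor genes 6 were higher on both arrays and 3 lower, and of 20 GABA and glycine receptor genes 4 and 4, with 0 passed in either list. Of 68 receptors for acetylcholine, amines and peptides, 24 were higher on both arrays (35.3%, against 20.5% of all genes) and 1 lower. Tacr1, the receptor of substance P, was at 0.36 on the Cy5 array and 0.19 on the Cy3 array and passed. Of 68 potassium channel genes 20 were higher and 11 lower. Kcnma1, the large calcium-activated channel, was at -0.47 on the Cy5 array and -0.44 on the Cy3 array, Kcnj3, a G-protein-gated channel, at -0.34 on the Cy5 array and -0.32 on the Cy3 array, and Kcnmb1, a beta subunit that pairs with Kcnma1, at 0.16 on the Cy5 array and 0.51 on the Cy3 array. Cacna2d1, an auxiliary calcium channel subunit, was at -0.29 on the Cy5 array and -0.34 on the Cy3 array and passed as lower.

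Markers of inner retinal neurons gave few shared directions. Of 18 ganglion cell markers, 5 were lower on both arrays and 2 higher. Nefl, the light neurofilament, was at -0.30 on the Cy5 array and -0.36 on the Cy3 array, Nrn1, neuritin, at -0.25 on the Cy5 array and -0.42 on the Cy3 array, and Ina, alpha-internexin, at -0.34 on the Cy5 array and -0.23 on the Cy3 array, and these 3 passed as lower. Thy1, a surface marker of ganglion cells, was at -0.22 and 0.12, on opposite sides of 0. Of 10 bipolar cell markers 4 were lower on both arrays, and 0 as deposited, where 12.3% of all genes were lower. Of 15 amacrine and horizontal cell markers 4 were lower and 2 higher. Tfap2b, a transcription factor of amacrine cells in mice, was at -0.26 on the Cy5 array and -0.32 on the Cy3 array, with all 3 of its probes below 0 on both arrays.

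Müller glia take up glutamate and turn it into glutamine, and vimentin and GFAP fill their processes. Of 21 markers of Müller glia and astrocytes, 6 were lower on both arrays and 3 higher. Glul, glutamine synthetase, was at -0.28 on the Cy5 array and -0.62 on the Cy3 array, Slc1a3, the glutamate transporter GLAST, at -0.65 on the Cy5 array and -0.23 on the Cy3 array, Car2, carbonic anhydrase 2, at -0.43 on the Cy5 array and -0.19 on the Cy3 array, and Dbi, the acyl-CoA binding protein, at -0.14 on the Cy5 array and -0.49 on the Cy3 array. These 4 passed as lower. Gfap, the protein of reactive glia, was at 0.07 and -0.14 and Vim at -0.02 and -0.10, and neither passed. Apoe was at 0.10 and 0.11 and did not pass.

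**Figure D4:**
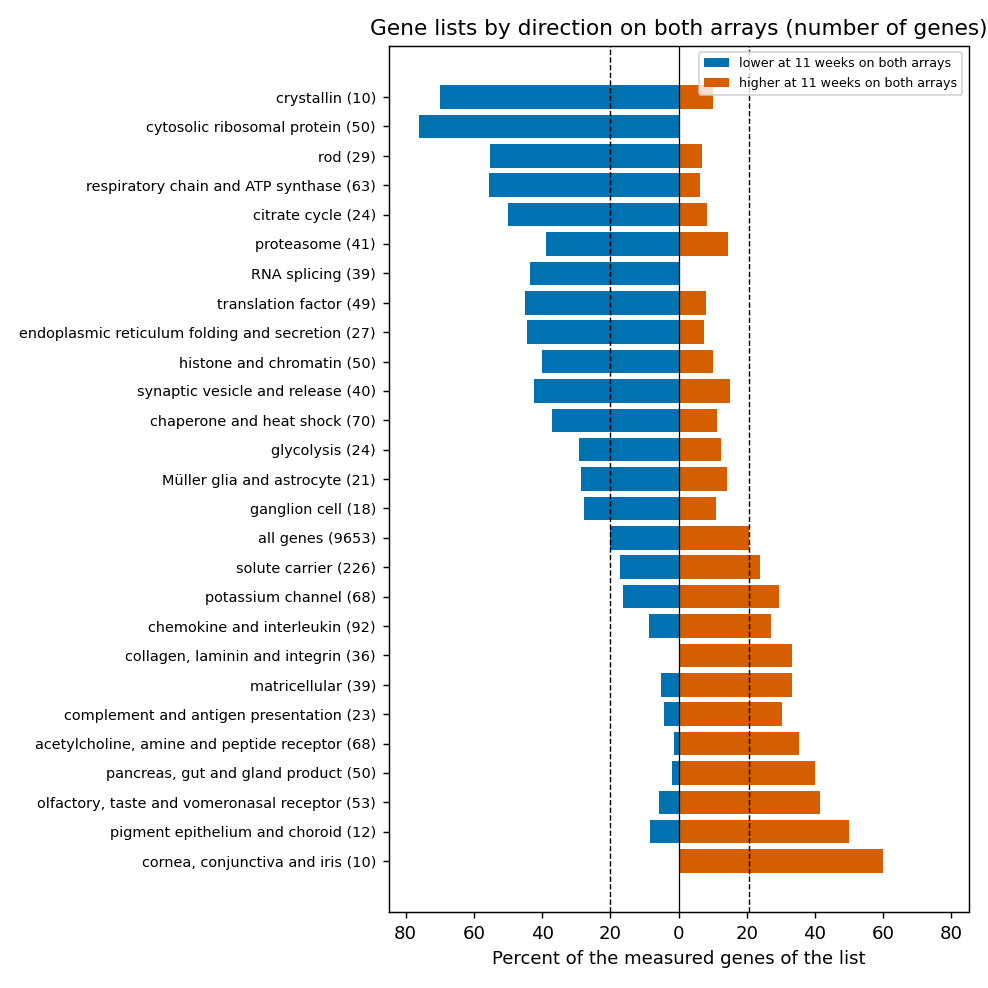
Percent of the measured genes of 26 lists and of all genes that were lower (bars to the left) or higher (bars to the right) at 11 weeks on both arrays, with the number of genes in brackets. Dashed lines mark the 20.2% lower and 20.5% higher of all 9653 genes. Lists for translation, energy and rods reach past the left line, while receptor, matrix and surface epithelium lists reach past the right one. So do the lists of olfactory, taste and vomeronasal receptors (41.5%) and of pancreas, gut and gland products (40%).

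Among lists that leaned to higher ratios, that of kynurenine and pyrimidine enzymes held both leading genes, Kmo and Dhodh. It joins separate pathways and was chosen with earlier results of these data known, so that it holds them is no finding. Its counts include both genes. The kynurenine pathway breaks tryptophan down towards NAD. Of 22 genes, 10 were higher on both arrays (45.5%) and 5 lower, with 4 passed as higher and 3 as lower. Kynu, kynureninase, which acts after Kmo, was at 0.31 on the Cy5 array and 0.36 on the Cy3 array, and Qprt, which makes the NAD precursor from quinolinate, at 0.34 on the Cy5 array and 0.26 on the Cy3 array. Kyat3, an aminotransferase that makes kynurenate in a side branch, was at -0.33 on the Cy5 array and -0.24 on the Cy3 array, and Aadat, another such aminotransferase, at -0.53 on the Cy5 array and -0.15 on the Cy3 array. Kmo, Kynu and Qprt of the main branch thus passed as higher, and both aminotransferases as lower. Haao, between Kynu and Qprt, was at 0.03 and 0.15, Ido1, at the entry, at -0.02 and -0.30, and Tdo2, also at the entry, at -0.21 and 0.31, none of which passed.

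In pyrimidine metabolism, Dhodh stood apart. Cad, which makes dihydroorotate, was at 0.07 and 0.10, and Umps, which follows Dhodh, at 0.12 and -0.25, and neither passed. Dpyd, which breaks pyrimidines down, was at 0.34 on the Cy5 array and 0.10 on the Cy3 array, and its limma adjusted p of 0.0647 did not pass. Cmpk1, a kinase of pyrimidine monophosphates, was at -0.46 on the Cy5 array and -0.23 on the Cy3 array and passed as lower. None of these 4 genes was as far from 0 as Dhodh on both arrays.

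Immune genes included a few members that passed, in lists with a slight lean or none. Among all genes 2.61% passed as higher and 6.34% as lower. Of 92 chemokine, interleukin and receptor genes, 25 were higher on both arrays (27.2%, against 20.5% of all genes) and 8 lower. In this list 3 passed as higher (3.26%) and 1 as lower (1.09%), so the share passed as higher was near that of all genes. Beside Ccl2, Cxcl11, an interferon-induced chemokine, was at 0.32 on the Cy5 array and 0.52 on the Cy3 array, and Il12b at 0.26 on the Cy5 array and 0.61 on the Cy3 array, and both passed as higher. Of 23 complement and antigen presentation genes, 7 were higher and 1 lower, and 3 passed as higher (13%). Serping1, the inhibitor of complement C1, was at 0.34 on the Cy5 array and 0.33 on the Cy3 array, and C1r, a protease of C1, at 0.32 on the Cy5 array and 0.28 on the Cy3 array, each the mean of 2 probes, and both passed. Of 19 microglia and leukocyte markers 5 were higher and 2 lower, with Cx3cr1 at 0.04 and 0.24 and Ptprc, the pan-leukocyte CD45, at -0.28 and -0.13, neither passed. In that list 2 passed as higher (10.5%). Ccl2 was the single member of 21 retinal stress and gliosis genes that passed. Of 17 interferon response genes, 3 were higher on both arrays and 3 lower, and 0 passed.

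Of 36 collagen, laminin and integrin genes, 12 were higher on both arrays (33.3%) and 0 lower, with Col17a1, a collagen of epithelial anchoring junctions, at 0.51 on the Cy5 array and 0.42 on the Cy3 array and passed. Of 39 matricellular and proteoglycan genes, 13 were higher and 2 lower. Spp1, osteopontin, was at 0.21 on the Cy5 array and 0.47 on the Cy3 array, and Dcn, decorin, at 0.36 on the Cy5 array and 0.19 on the Cy3 array, both passed. Sparc was at -0.04 on the Cy5 array and -0.49 on the Cy3 array and passed as lower. Of 9 annexin genes, a list added after the values were seen, 6 were higher and 0 lower, and Anxa2, at -0.01 and 0.53, lay on opposite sides of 0.

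Markers of neighbouring tissues were measured beside these lists. Of 10 cornea, conjunctiva and iris markers, 6 were higher on both arrays and 0 lower, with a median of 0.18, and Krt5 was at 0.30 on the Cy5 array and 0.34 on the Cy3 array and passed. Of 12 pigment epithelium and choroid markers, 6 were higher and 1 lower. Tyr, tyrosinase, was at 0.18 on the Cy5 array and 0.70 on the Cy3 array and passed as higher, Ttr, transthyretin, at -0.68 on the Cy5 array and -0.21 on the Cy3 array and passed as lower, and Rpe65 at -0.21 and 0.12, on opposite sides of 0. Of 11 myelin markers 5 were higher and 0 lower. Of 16 vessel markers 2 were higher and 0 lower, of 10 skeletal muscle markers 3 and 2, and of 4 red blood cell markers 1 and 0. Their part in the other results was not tested.

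Families that the retina is not known to express in bulk also lay higher. Of 53 olfactory, taste and vomeronasal receptor genes, 22 were higher on both arrays (41.5%) and 3 lower, with a median of 0.11. Of 50 genes for products of pancreas, gut and glands, 20 were higher (40%) and 1 lower, and of 49 cytochrome P450 genes 15 and 3. Spot intensities were not used here, so whether such probes were above background is unknown.

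Lists of growth and development were mixed and held single genes that passed. Of neuronal development genes 4.88% passed as higher, and of cell cycle genes 0%, against 2.61% of all genes. As lower, 4.88% and 6.06% passed, against 6.34% of all genes. Of 41 neuronal development genes, 13 were higher on both arrays and 6 lower. Notch2 was at 0.42 on the Cy5 array and 0.27 on the Cy3 array and Dll3, a Notch ligand, at 0.23 on the Cy5 array and 0.27 on the Cy3 array, both passed as higher. Dlk1, a non-canonical Notch ligand, was at -0.39 on the Cy5 array and -0.37 on the Cy3 array, and Neurod1, a transcription factor that maintains photoreceptors in mice, at -0.26 on the Cy5 array and -0.38 on the Cy3 array, both passed as lower. Stmn1, stathmin, a microtubule regulator of growing neurons, was at -0.57 on the Cy5 array and -0.41 on the Cy3 array, and Dync1h1, the heavy chain of cytoplasmic dynein, at -0.52 on the Cy5 array and -0.40 on the Cy3 array. Of 33 cell cycle genes 8 were higher and 3 lower, with Cdkn1b, the cycle inhibitor p27, at -0.30 on the Cy5 array and -0.40 on the Cy3 array and passed. Igfbp3, a binding protein of insulin-like growth factors, was at 0.29 on the Cy5 array and 0.34 on the Cy3 array and passed as higher.

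Of 35 antioxidant genes, 11 were lower on both arrays and 7 higher. The peroxiredoxin Prdx1 was at -0.22 and -0.31, Prdx2 at -0.27 and -0.34, and Sod2, the mitochondrial superoxide dismutase, at -0.30 and -0.22 (Cy5 and Cy3 array), all passed as lower. Srxn1, which repairs peroxiredoxins, was at 0.33 on the Cy5 array and 0.39 on the Cy3 array, and Sod3, the extracellular dismutase, at 0.26 on the Cy5 array and 0.33 on the Cy3 array, both passed as higher. Elovl4, which makes the very long fatty acids of photoreceptor membranes, was at -0.37 on the Cy5 array and -0.38 on the Cy3 array, the lowest by the weaker array of 29 genes of lipid synthesis. Of 16 clock genes 0 passed, and of 24 immediate early genes Dusp1, at 0.20 on the Cy5 array and 0.56 on the Cy3 array, passed as higher.

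Genes with several probes allow a comparison within the array. Of 2266 genes with 2 or more probes, 198 had every probe in the same direction on both arrays. Whether such counts exceed those of unrelated probes was not tested. Of 583 genes with 3 or more probes, 11 had every probe in the same direction on both arrays, 3 as higher (0.515%) and 8 as lower (1.37%). Among the lower ones, the probe means of Tfap2b ranged over -0.48 to -0.17, those of Smarca5, an ATPase that moves nucleosomes, over -0.39 to -0.17, and those of Chd1, another chromatin remodeller, over -0.29 to -0.25. Tent2, a poly(A) polymerase of the cytoplasm, ranged over -0.37 to -0.21. Ppp4r3b, a regulatory subunit of protein phosphatase 4, ranged over -0.31 to -0.05, and lost its direction with the ratios as deposited. The 3 higher genes were Bcar3, at 0.18 to 0.20, Traf3ip2, at 0.11 to 0.24, and Scn4b, a sodium channel beta subunit, at 0.11 to 0.22. These ratios are smaller than those of the leading genes, which mostly had 1 probe and so allowed no such comparison.

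Grouping all genes by the letters of their symbol before the first digit gave 169 families of 8 or more genes, 71 with a median below 0 and 95 above. The lowest after Rpl and Rps was Trappc. Next came the elongation factors under Eef (5 of 9 genes lower and 1 higher on both arrays, median -0.13), the peroxisome assembly genes under Pex (6 of 11 genes lower and 1 higher on both arrays, median -0.12) and the genes under Cox (8 of 18 genes lower and 2 higher on both arrays, median -0.11), which joins cytochrome oxidase subunits with their assembly factors. At the high end stood Anxa, followed by the nicotinic receptor subunits Chrna (4 of 8 genes higher and 0 lower, median 0.14) and the fatty acid binding proteins Fabp (4 of 8 higher and 1 lower, median 0.12). The olfactory receptors Or had 15 of 30 higher, the spermatogenesis-associated genes Spata 1 of 14, and the tumour necrosis factor receptors Tnfrsf 5 of 12.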

How the data were processed

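The data are the submitters' value table of 4 two-colour arrays, which holds log2 ratios as deposited. The scale was taken as log2 because its ceiling is log2 of 100000. Neither labels nor files name the scanner, the background correction or the normalization used before deposit. The deposited medians over all probes were -0.05 on the Cy5 array and -0.14 on the Cy3 array, so the arrays were not centred on 0. On the 20-week arrays these medians were 0.547 and -0.031, with the older retina in Cy5 and in Cy3. Without spot intensities, no filter on dim probes and no intensity-dependent normalization were applied. Probes at this ceiling (94 and 108 on the Cy5 and Cy3 array, 0 of them with a gene name) were left out.

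Each array was centred on the median of the 12750 probes with 1 gene, the sign of the Cy3 array was turned, and probes of a gene were averaged. Names came from the platform annotation, in which 5 probes had several genes and 9820 none. Gene IDs of 12720 probes matched RefSeq for GRCr8, and 0 symbols changed. Actb and Gapdh are not analysed here.

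Models across all genes used limma 3.58.1 in R 4.3.3, with and without a dye effect, over all 4 arrays with 1 coefficient per older age and Benjamini-Hochberg adjustment at 0.05. Both were tested on simulated data. The simulated dye effect was equal on all 4 arrays, as the model with a dye effect assumes, so unequal dye effects were not tested. Each array was a slide of its own, so slide could not be a block. The alternatives were the ratios as deposited, centring on all probes, single probes, the pair alone, each array left out, other fold limits, genes with 2 or more probes and, added after the data were seen, the Cy3 array not turned.

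Genes named are the 15 highest and 15 lowest by the weaker array, up to 4 genes per list in its main direction and 2 in the other, the leading genes with 3 or more probes, and a few genes central to a pathway. Some further pathway members, such as Gnat1, Sag, Haao and Umps, were chosen after their values were seen. The comparison and the lists were chosen with earlier results of these data known, list patterns were corrected by gene name, and the sublists of complexes and subunits, TRAPP and annexins were added after the values were seen.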

Additional observations from a re-analysis of the deposited data

Results flagged for a closer look

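For 4 of the 30 leading genes, the 11-week arrays lay on one side of 0 and both 20-week arrays on the other. Zcchc7 was at -0.50 on both 11-week arrays and at 0.31 and 0.43 on the 20-week arrays with the older retina in Cy5 and in Cy3, a difference of 0.867 between the mean ratios at 20 and 11 weeks. Nop58 was at -0.47 and -0.52 at 11 weeks and at 0.08 and 0.56 at 20 weeks, a difference of 0.817. Anxa1 was at 0.71 and 0.63 at 11 weeks and at -0.54 and -0.46 at 20 weeks, a difference of -1.174. Sdc1 was at 0.48 and 1.43 at 11 weeks and at -0.88 and -0.26 at 20 weeks, a difference of -1.526.

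In limma the difference between the ages passed for these 4 genes with a dye term, at adjusted p of 0.000977 for Zcchc7, 0.0047 for Nop58, 0.000436 for Anxa1 and 0.000258 for Sdc1. Without a dye term each adjusted p was 1. The 4 genes were picked by the same values that this fit used, so these p-values are a description and give no separate support. Both comparisons are made against 5 weeks, and each array was a slide of its own, so array and age cannot be told apart. With 2 arrays per age, single arrays could not be checked as outliers.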

How the results depend on the processing

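Without a dye term, 0 genes passed in limma under any setting run, with 32 genes at an unadjusted p under 0.05 on the ratios as deposited and 418 probes with each probe on its own. With a dye term, 864 genes passed, against 0 as deposited, 451 after centring on all probes (all 451 among the 864, 25.3% of them higher against 29.2%) and 1125 of 12750 probes. With 1 array left out, the dye term leaves no residual degrees of freedom, so that fit was not run. Genes past the fold on both arrays numbered 160, against 105 as deposited, 12 at a 1.5-fold limit and 1078 at a 1.1-fold limit. A single array alone put from 1652 to 2342 genes past the fold, and 577 lay past it with the Cy3 array not turned. Of 66 lists of 5 or more genes, 16 had a median below -0.1, against 11 as deposited, from 22 to 25 on single arrays, 8 of the 23 lists left with genes of 2 or more probes, and 0 with the Cy3 array not turned. Not turned, 35 of the 66 list medians changed sign, among them 10 of the 20 that lay beyond 0.1 in either direction. Those 10 became: rod genes 0.066, ribosomal proteins 0.114 (large subunit 0.142, small subunit 0.112), respiratory chain 0.041, complex I 0.058, complex III 0.095, ATP synthase 0.01, endoplasmic reticulum 0.027 and crystallins 0.03. That follows from how the setting is built, since turning 1 array exchanges agreement for disagreement. As deposited, the 30 leading genes kept their direction, and 50 of 339 named genes with 1 direction lost it. The number of arrays limits the precision of every value. Each ratio already compares an older age with 5 weeks on 1 array. The labels give the arrays no shared replicate numbers, so no pairing between the 11-week and 20-week arrays was made.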

Other observations

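Probes without a listed gene, taken singly, gave a smaller share of agreement than named genes (40.7%), whose probes were averaged. The share for named probes taken singly is not given here. Of 9365 such probes with a value on both arrays, 3153 had the same direction on both (33.7%), 57 were past the fold as higher at 11 weeks (0.609%) and 94 as lower (1%).

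For some genes the ratios, as turned here, changed sign with the dye in both pairs of arrays. Kazn, a regulator of epithelial junctions, was at 0.84 on the Cy5 array and -0.80 on the Cy3 array at 11 weeks, and at 0.97 and -0.55 at 20 weeks. Casp8, the initiator caspase of death receptors, was at 0.95 and -0.66 at 11 weeks, and at 1.11 and -0.31 at 20 weeks. In the other direction, Dmrta1, a transcription factor gene, was at -1.72 and 0.59 at 11 weeks, and at -0.81 and 1.52 at 20 weeks, and Masp1, a protease of the lectin pathway of complement, was at -1.15 and 0.54 at 11 weeks, and at -0.72 and 0.37 at 20 weeks. These 4 genes were chosen after their values were seen. On any single array each would have ranked far from 0, and as turned its mean over the pair says little of age. With the Cy3 arrays not turned, each would have the same direction on all 4 arrays. Which reading holds was not tested.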
